A study of Mus musculus with 32 samples.

Results

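The 10 genes of the contractile apparatus of smooth muscle, Acta2, Myh11, Tagln, Cnn1, Smtn, Mylk, Myl9, Lmod1, Tpm2 and Des, were measured in brain arteries of mice with altered Notch3. They were chosen by symbol: each symbol matched 1 Ensembl identifier among the 55357 genes of the count table, so that all 10 members were found. RNA was sequenced from 32 mice, 8 in each of 4 groups, and each mouse gave 1 library. The 3-month-old groups were Notch3+/+ mice and Notch3-/- mice, whose gene had been inactivated. TgNotch3R169C mice were 12 months old and carried, on top of their own mouse Notch3, a transgene on a phage P1-derived artificial chromosome with rat Notch3 bearing the CADASIL-type cysteine mutation. Their WT controls, labeled non-Tg, were also 12 months old. No mouse was treated, both lines had been bred onto C57BL/6, and the controls were littermates. The transgene sits on the X chromosome, both sexes of that line were used, and sex is not among the labels. The arteries were dissected whole, so each library holds smooth muscle with the other cells of the vessel wall and adhering tissue.

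Arterial smooth muscle cells contract when calcium and calmodulin switch on myosin light chain kinase, which phosphorylates the regulatory light chain of myosin and lets the myosin heavy chain pull on filaments of smooth muscle α-actin. Tropomyosin, calponin, transgelin, smoothelin and leiomodin bind or build those actin filaments, and desmin forms the intermediate filaments that link them to the rest of the cell. Most of these genes are known targets of serum response factor, which binds the CArG box with its cofactor myocardin, and Notch3 is a Notch receptor of arterial mural cells. In dissected tissue, fewer smooth muscle cells and less RNA per cell cannot be told apart.

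The start regions of 3 members are shown with their CArG boxes, searched as CC, 6 bases and GG. A strict box has only A or T in the 6 middle bases, and a relaxed one has at most 1 G or C there; the motif reads as a box on both strands. The windows are RefSeq's on GRCm38.p6, from 250 bases before to 50 bases after the gene start, and 8 of the 10 members were matched, all but Tagln and Myh11. Acta2 and Myl9 held boxes, printed in capitals, and Des is printed beside them because its change in Notch3-/- mice had the other sign, a choice made after its values were seen.
Acta2 (chr19:34255324-34255623, minus strand): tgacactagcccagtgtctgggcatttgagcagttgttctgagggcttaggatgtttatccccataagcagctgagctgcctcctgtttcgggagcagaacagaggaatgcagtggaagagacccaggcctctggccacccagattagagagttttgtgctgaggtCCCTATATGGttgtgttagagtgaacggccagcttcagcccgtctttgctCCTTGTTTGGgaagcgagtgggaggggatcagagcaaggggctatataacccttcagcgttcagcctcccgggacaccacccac
Myl9 (chr2:156775214-156775513, plus strand): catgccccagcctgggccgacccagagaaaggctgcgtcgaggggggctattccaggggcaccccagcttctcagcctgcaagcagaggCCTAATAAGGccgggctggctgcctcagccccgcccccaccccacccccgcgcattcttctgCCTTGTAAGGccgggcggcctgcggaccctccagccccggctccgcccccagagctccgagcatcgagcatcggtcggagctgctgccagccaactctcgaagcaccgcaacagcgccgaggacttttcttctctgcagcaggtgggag
Des (chr1:75360042-75360341, plus strand): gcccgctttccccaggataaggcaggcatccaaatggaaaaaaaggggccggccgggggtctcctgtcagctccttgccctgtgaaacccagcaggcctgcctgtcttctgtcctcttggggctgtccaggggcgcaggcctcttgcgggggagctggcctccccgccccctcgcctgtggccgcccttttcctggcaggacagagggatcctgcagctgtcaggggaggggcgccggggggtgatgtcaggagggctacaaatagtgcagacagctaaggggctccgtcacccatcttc
The Acta2 window held 2 relaxed boxes, CCCTATATGG, which begins 84 bases before the start, and CCTTGTTTGG, which begins 34 bases before it. The Myl9 window held the strict box CCTAATAAGG, 161 bases before the start, and the relaxed box CCTTGTAAGG, 99 bases before it. A strict box was present in 1.63% of the 32851 start regions in the table, and a box of either kind in 9.98%. The core TGGGAA, which the Notch effector RBPJ is known to bind, was sought on both strands and occurred in the windows of Acta2, where it begins 27 bases before the start and overlaps the second box, and of Smtn, 68 bases before the start. It occurred in 25.6% of all windows. These matches describe the letters of the windows only. No alignment of at least 100 bases between a member's transcript and another gene's had 95% identity or more over its whole length. Alike stretches within longer, less identical alignments were not sought, and reads shared between genes were not examined. Tagln, Smtn, Mylk and Des overlap genes on the opposite strand, and whether the counting used strand is not given in the sources used here.

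The libraries held 20289487 to 54481934 counted reads, and the lowest count of any member in any library was 590, for Cnn1 in a TgNotch3R169C mouse. Levels are given as CPM, read counts divided by library size and scaled by TMM over all 32 libraries. Notch3 itself stood at 83.6 ± 12.0 CPM (SD, n = 8) in Notch3+/+ arteries but at 16.2 ± 1.82 CPM in those of Notch3-/- mice, and it was 73.2 ± 8.19 CPM in WT and 182 ± 34.5 CPM in TgNotch3R169C mice. Both mutant groups were apart from their controls in every mouse. How many reads of the rat transgene were counted on the mouse gene was not tested. Genes of the choroid plexus, a tissue that can adhere to dissected vessels, summed to over 1000 CPM in 7 libraries, of which 1 was from a Notch3-/- mouse, 4 were from WT and 2 from TgNotch3R169C mice, and to at most 652 CPM in the others. A Notch3+/+ library (replicate 5) held 8956 CPM of pituitary genes. Endothelial genes summed to 1599 to 2423 CPM and the mural genes that encode no contractile protein to 639 to 1066 CPM over all libraries, and genes of skeletal and cardiac muscle to at most 20.1 CPM. The 10 members summed to 2943 to 5206 CPM in Notch3+/+, 2025 to 3085 CPM in Notch3-/-, 1659 to 2547 CPM in WT and 1395 to 2127 CPM in TgNotch3R169C mice.

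On the scale of CPM per kilobase of exons, the level of Myl9 in Notch3+/+ mice was 414 ± 83.5, of Acta2 394 ± 80.6 and of Tagln 356 ± 64.3, and these 3 levels differed by less than their SD. The level of Myh11 was 88.7 ± 20.5 and that of Tpm2 was 74.2 ± 16.1 CPM per kilobase. Smtn, Mylk, Cnn1 and Lmod1 followed at 39.0, 36.6, 31.7 and 25.7, and Des was lowest at 16 ± 2.26 CPM per kilobase. In Notch3-/- mice the lowest places were held by Lmod1, at 16.4 ± 2.43, Cnn1, at 18.3 ± 3.89, and Des, at 19.4 ± 2.5 CPM per kilobase, which differed by less than the SD of Cnn1 from one to the next. These lengths come from GENCODE vM21 exons, an annotation that may not be the one the authors counted on.

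**Figure D1:**
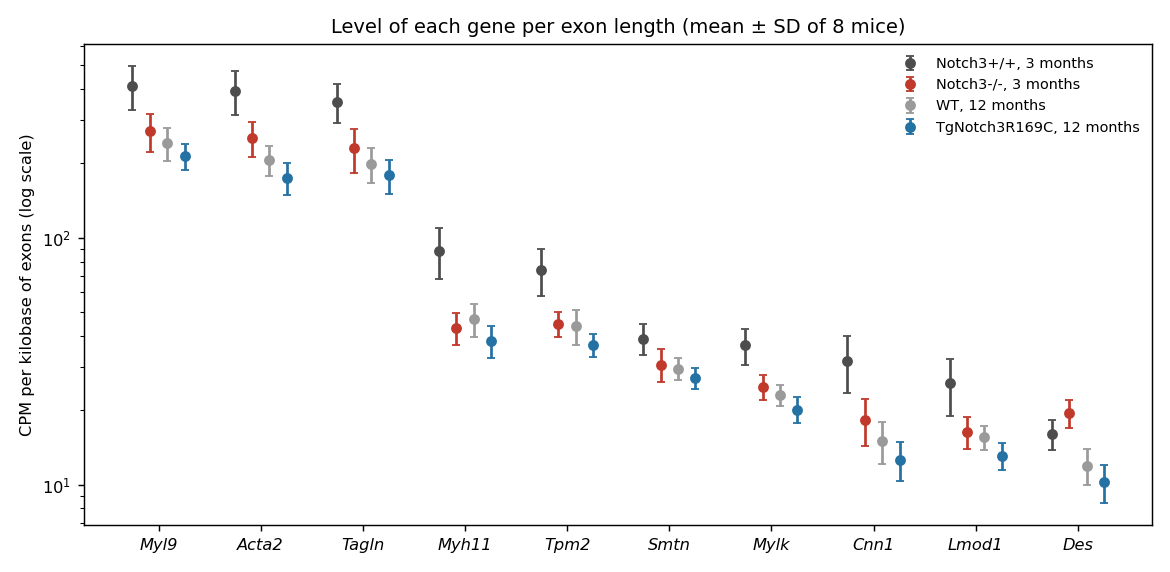
Levels of the 10 genes in CPM per kilobase of exons (log axis), as the mean and SD of 8 mice in each of 4 groups. Myl9, Acta2 and Tagln stand above the rest at means of 174.8 CPM per kilobase or more in every group, and Des is the gene whose Notch3-/- mean lies above its Notch3+/+ mean.

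Across the groups, 8 of the 10 members had the same order of mean levels: Notch3+/+ highest, then Notch3-/-, then WT, then TgNotch3R169C. Myh11 differed in that the Notch3-/- mean (327 CPM) lay below the WT mean (355 CPM), and Des in that Notch3-/- was highest. TgNotch3R169C mice were lowest for all 10 genes. Neighboring groups often did not differ beyond their spread: in the order of means, the highest group overlapped the next in 6 genes, the middle groups overlapped in all 10 and the lowest group overlapped the one above it in all 10. Notch3-/- and WT mice, the middle groups for all members but Des, differ in genotype, age and line and were not tested against each other.

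**Figure D2:**
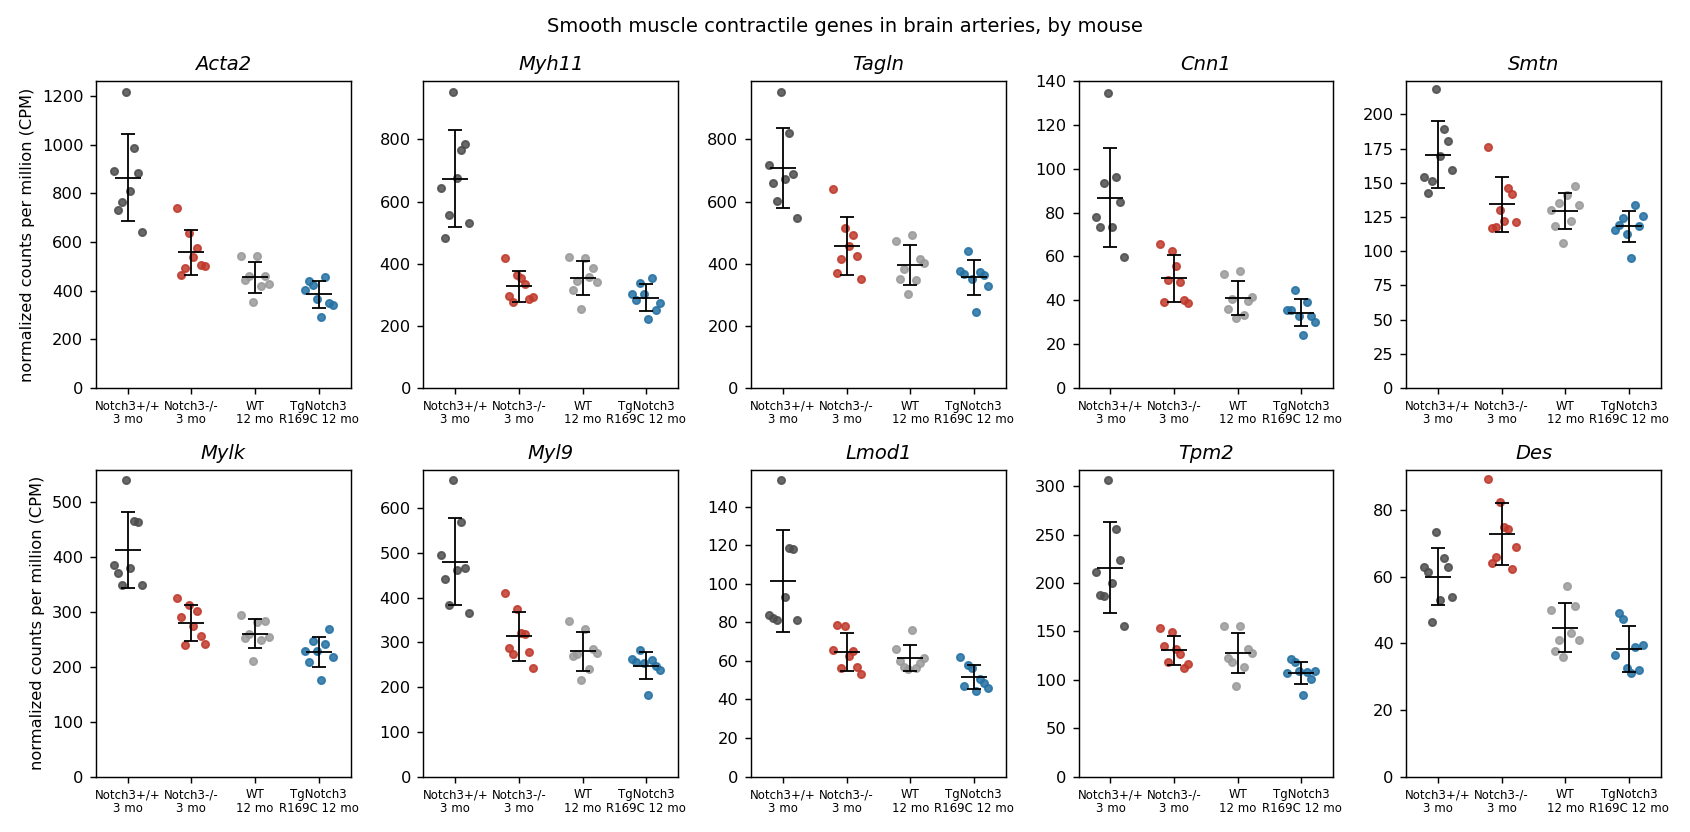
CPM of each gene in every mouse (points), with the mean and SD of the 8 mice of each group. For Myh11, Mylk, Lmod1 and Tpm2 the Notch3-/- mice lie below all Notch3+/+ mice, whereas the TgNotch3R169C and WT mice overlap for every gene.

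In brain arteries of Notch3-/- mice, 8 of the 10 contractile genes were lower than in Notch3+/+ mice (edgeR quasi-likelihood test with Benjamini-Hochberg adjustment over 17714 genes, adjusted p below 0.05). The share of all genes called lower was 0.452%. The largest change was that of Myh11, which fell to 48.6% of the control level, and the other 7 fell to between 57.7% and 67.9%. Smtn was lower without passing the test, and Des was the only member with a higher mean. The median log2 fold change of the 10 was −0.63, beside −0.0011 over all genes tested. The CPM ranges of the 2 groups did not overlap for 4 of the 10, Myh11, Mylk, Lmod1 and Tpm2, all lower, as was the case for 0.231% of all genes.

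The motor protein is described first. Myh11 (ENSMUSG00000018830), the heavy chain of smooth muscle myosin, had a lowest, median and highest level of 482, 660 and 951 CPM in Notch3+/+ mice and of 275, 315 and 418 CPM in Notch3-/- mice. All 8 mutant mice were below the lowest control. The log2 fold change was −1.04 ± 0.13 (SE; 95% CI −1.32 to −0.76; edgeR, adjusted p = 0.000395).

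Both the substrate and the enzyme of light chain phosphorylation were lower. Myl9 (ENSMUSG00000067818), the regulatory light chain, ran from 367 over a median of 464 to 662 CPM in the controls and from 243 over 303 to 411 CPM in the mutants. Mylk (ENSMUSG00000022836), the light chain kinase, ran from 348 over 382 to 540 CPM and from 240 over 282 to 324 CPM. Every Notch3-/- mouse was below the control mean for both genes, and for Mylk all were below the lowest control. The log2 fold change was −0.61 ± 0.12 for Myl9 (SE; edgeR, adjusted p = 0.0280) and −0.56 ± 0.09 for Mylk (adjusted p = 0.00705).

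Acta2, Tpm2 and Lmod1, of the actin filament, were lower. Acta2 (ENSMUSG00000035783), smooth muscle α-actin, ran from 642 over 846 to 1215 CPM in Notch3+/+ mice and from 464 over 522 to 741 CPM in Notch3-/- mice. Tpm2 (ENSMUSG00000028464), the tropomyosin that lies along the filament, ran from 156 over 206 to 306 CPM and from 112 over 129 to 153 CPM. Lmod1 (ENSMUSG00000048096), which nucleates actin filaments, ran from 81.1 over 88.4 to 154 CPM and from 53.1 over 64.0 to 78.6 CPM. For Acta2, 7 of 8 mutants were below the lowest control, and for Tpm2 and Lmod1 all 8 were. The log2 fold change was −0.63 ± 0.12 for Acta2 (SE; edgeR, adjusted p = 0.0190), −0.73 ± 0.11 for Tpm2 (adjusted p = 0.00322) and −0.65 ± 0.13 for Lmod1 (adjusted p = 0.0324).

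Of the actin-binding proteins, Tagln and Cnn1 were lower and Smtn did not pass the test. Tagln (ENSMUSG00000032085), transgelin or SM22α, ran from 546 over 681 to 952 CPM in controls and from 351 over 439 to 640 CPM in mutants. Cnn1 (ENSMUSG00000001349), calponin 1, which restrains the myosin ATPase, ran from 59.9 over 81.4 to 135 CPM and from 38.6 over 48.8 to 65.9 CPM. In both genes the ranges overlapped and all 8 mutants were below the control mean. The log2 fold change was −0.63 ± 0.13 for Tagln (SE; edgeR, adjusted p = 0.0268) and −0.79 ± 0.15 for Cnn1 (adjusted p = 0.0208). Smtn (ENSMUSG00000020439), smoothelin, ran from 143 over 164 to 218 CPM and from 117 over 126 to 176 CPM, with 7 of 8 mutants below the control mean and a log2 fold change of −0.34 ± 0.10 (95% CI −0.55 to −0.14; adjusted p = 0.153).

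Des (ENSMUSG00000026208), the intermediate filament desmin, had the opposite sign. Its lowest, median and highest levels were 46.5, 62.2 and 73.6 CPM in Notch3+/+ mice and 62.3, 71.8 and 89.3 CPM in Notch3-/- mice. No mutant mouse was below the control mean, 4 of 8 were above the highest control, and the ranges overlapped. The log2 fold change was 0.28 ± 0.09 (SE; 95% CI 0.09 to 0.47), which did not pass the test over all genes (edgeR, adjusted p = 0.296). Striated muscle also makes desmin. Its 10 marker genes summed to 5.16 to 20.1 CPM in Notch3-/- and to 6.38 to 11.2 CPM in Notch3+/+ libraries. Of the 11 mural genes that encode no contractile protein, 8 had a lower mean and 3 a higher one (median −0.11). Kcnj8, a potassium channel subunit, rose by 0.46 ± 0.08 on the log2 scale (edgeR, adjusted p = 0.00848), while Cspg4, the proteoglycan NG2, fell by 0.49 ± 0.09 (adjusted p = 0.0159). The part of striated muscle or of mural cells in the level of Des was not tested. With the mean of the mural list as a covariate the change of Des was 0.38 (edgeR, adjusted p = 0.0308).

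The calls rested in part on single mice. Without Notch3-/- replicate 7, 3 members passed the threshold, and without Notch3-/- replicate 3, Notch3+/+ replicate 6 or Notch3+/+ replicate 7, 5 did in each case. Over the 16 fits that left out 1 library, Myl9 lost its call in 10, Lmod1 in 9, Tagln in 7 and Acta2 and Cnn1 in 1 each. Myh11, Mylk and Tpm2 kept theirs in all 16. Lmod1 and Myl9 also missed the threshold without the choroid-rich Notch3-/- library (6 members called), with log2 fold changes of −0.61 and −0.56. With the mural list as a covariate 7 members were called lower, and Lmod1 missed the threshold (−0.47, edgeR, adjusted p = 0.0944). Smtn passed it with the endothelial list as a covariate (−0.41, edgeR, adjusted p = 0.0107) and with all 4 groups in 1 fit (−0.35, adjusted p = 0.0458), so that 9 members were called in each of these fits.

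**Figure D3:**
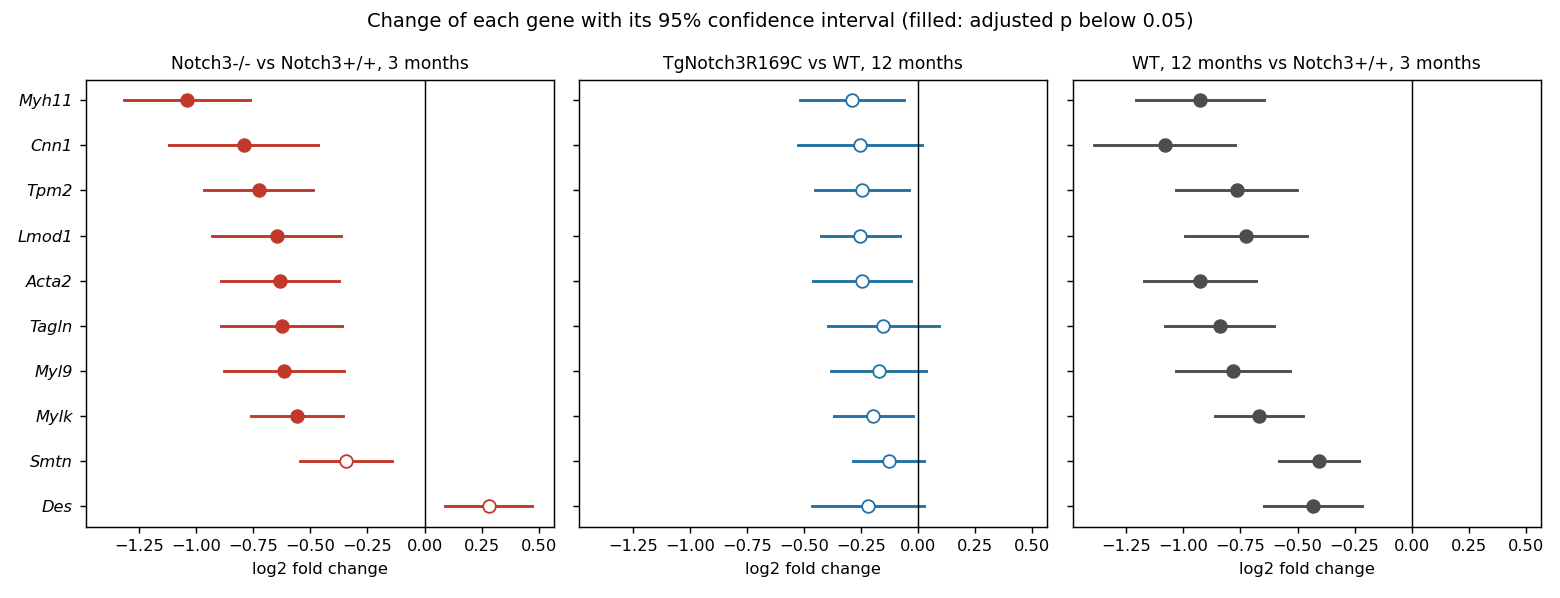
Log2 fold change (points) and 95% confidence interval (lines) of each gene in 3 comparisons, filled where the adjusted p was below 0.05. Notch3-/- mice show 8 filled points to the left of 0, TgNotch3R169C mice show 10 open points between −0.29 and −0.13, and the 12-month controls show 10 filled points.

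Since all members are scaled by the same library factor, the ratio of 1 member to another within a library does not depend on normalization. The ratio of each of the other 9 genes to Acta2 was therefore compared in 3 pairs of groups by a two-sided exact permutation test over the 12870 divisions of 8 against 8 mice, with adjustment over the 27 comparisons. The ratios were chosen after the values of the members had been seen. In Notch3-/- mice, 3 of the 9 ratios differed from the controls. All 9 share Acta2 as denominator, which was itself lower (log2 fold change −0.63). A gene that fell less than Acta2 thus has a higher ratio. The share of all genes whose ratio to Acta2 differed was not computed. The log2 ratio of Des to Acta2 was −3.83 ± 0.19 (SD, n = 8; range −4.04 to −3.57) in Notch3+/+ and −2.93 ± 0.08 (range −3.05 to −2.84) in Notch3-/- mice, a difference of 0.91 (exact permutation p = 0.000155, the smallest these divisions allow; adjusted p = 0.00140). All 8 mutants lay above all controls. The log2 ratio of Smtn to Acta2 was higher by 0.28 (exact permutation p = 0.00342, adjusted p = 0.0115). The log2 ratio of Myh11 to Acta2 was lower, at −0.76 ± 0.09 against −0.37 ± 0.14, a difference of −0.40 (exact permutation p = 0.000155, adjusted p = 0.00140), and all 8 mutants lay below all controls. For Tagln, Myl9, Mylk, Lmod1, Tpm2 and Cnn1 the ratio to Acta2 differed by −0.16 to 0.07 on the log2 scale and did not pass the test. Thus the log2 level of Tagln relative to Acta2 was −0.29 ± 0.10 in Notch3-/- and −0.28 ± 0.07 in Notch3+/+ mice.

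**Figure D4:**
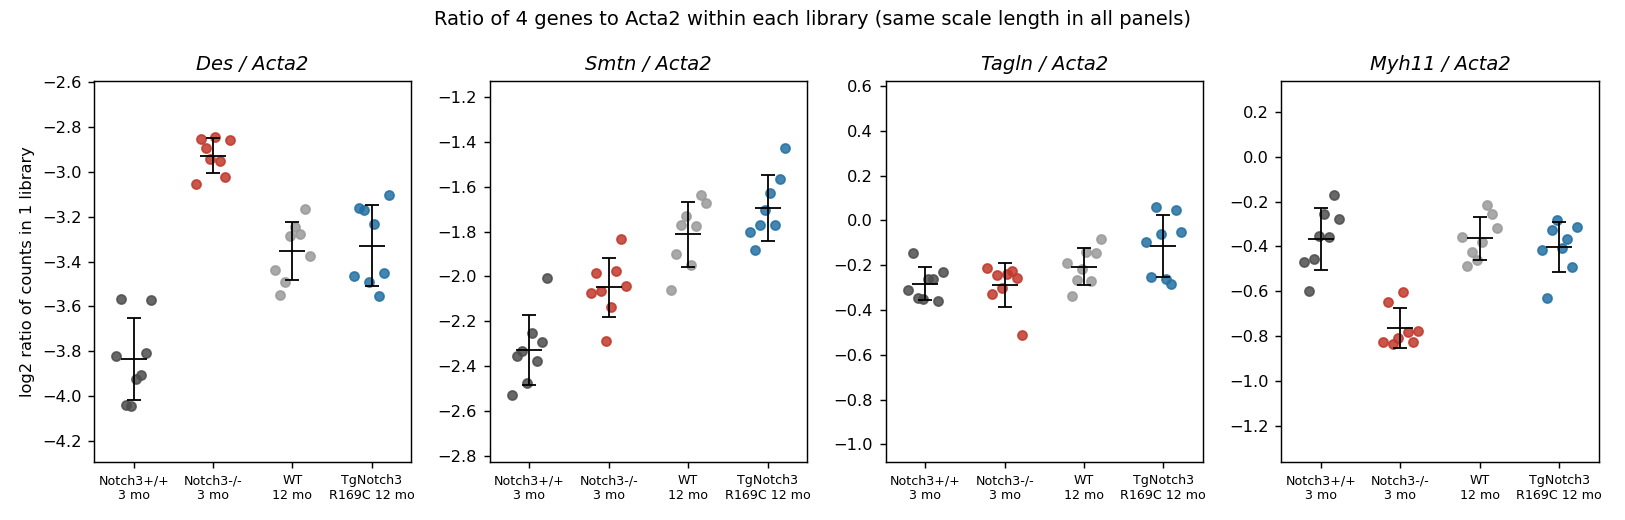
Log2 ratio of the counts of Des, Smtn, Tagln and Myh11 to those of Acta2 in every library (points), with the mean and SD of each group and the same axis length in each panel. Notch3-/- mice stand apart upward for Des/Acta2 and downward for Myh11/Acta2, and the TgNotch3R169C and WT mice overlap in each panel.

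In TgNotch3R169C mice at 12 months, no contractile gene passed the test against WT mice (edgeR, 17731 genes), and 0.113% of all genes did. All 10 members had a lower mean, by −0.13 for Smtn to −0.29 for Myh11 on the log2 scale, with a median of −0.23 beside −0.0074 over all genes tested, of which 53% had a lower mean. At an unadjusted p below 0.05, 5 of the 10 were lower, beside 3.27% of all genes. With DESeq2 and with limma voom the number of members called was also 0. The members share their libraries and move together between mice, so the 10 signs are not independent. Markers of other cells also differed in mean, with 0 called by edgeR in any list. At an unadjusted p below 0.05, 2 fibroblast genes, 1 astrocyte, 1 endothelial and 1 mural gene were higher, and 2 pituitary genes were lower. Of all genes, 7.27% passed that limit in either direction. All 10 neuron genes were higher (median 0.35), with sums of 296 to 1101 CPM in WT and 453 to 1322 CPM in TgNotch3R169C libraries, 9 of the 10 endothelial genes were higher (median 0.10) and all 8 choroid plexus genes were lower (median −1.03). Their part in the levels of the members was not tested.

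Those 5 genes were Lmod1, Myh11, Tpm2, Acta2 and Mylk. Lmod1 ran from 56.0 over 59.6 to 76.3 CPM in WT and from 44.1 over 49.5 to 62.0 CPM in TgNotch3R169C mice, with 5 of 8 mutants below the lowest control. Its log2 fold change was −0.25 ± 0.08 (95% CI −0.43 to −0.08; edgeR, adjusted p = 0.532). Myh11 ran from 255 over 351 to 422 CPM and from 221 over 293 to 354 CPM, with a log2 fold change of −0.29 ± 0.11 (95% CI −0.52 to −0.06; edgeR, adjusted p = 0.626). Every TgNotch3R169C mouse was below the WT mean for Myh11 and for Tpm2, and the ranges overlapped for both. Acta2 ran from 352 over 450 to 544 CPM and from 293 over 385 to 456 CPM, and the TgNotch3R169C level was 84.4% of that in WT mice (95% CI of the log2 fold change −0.46 to −0.03). Tpm2 was at 84.3% and Mylk at 87.2% of the WT level.

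The other 5 had intervals that included 0. Cnn1 was at 83.8% of the WT level (95% CI of the log2 fold change −0.53 to 0.02), Des at 85.9% (−0.46 to 0.02), Myl9 at 88.7% (−0.38 to 0.04), Tagln at 90.0% (−0.40 to 0.09) and Smtn at 91.4% (−0.28 to 0.02). Des thus had the same sign as the other members in these mice, and it ran from 36.1 over 42.1 to 57.3 CPM in WT and from 31.2 over 37.7 to 49.1 CPM in TgNotch3R169C mice. The CPM ranges overlapped for all 10 genes, and over all genes they did not overlap in 0.141%. None of the 9 ratios to Acta2 differed (exact permutation, lowest adjusted p = 0.227). The difference in the log2 ratio was 0.02 for Des, where it was 0.91 in Notch3-/- mice, and −0.04 for Myh11, where it was −0.40, and the difference between the mutants in these ratios was not tested.

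Whether the changes of the members differed between the mutants was tested as an interaction across the 4 groups together, where 18555 genes were tested and 0.35% of all genes passed in either direction. Of the members, 1 passed, Myh11, whose log2 fold change was higher in TgNotch3R169C than in Notch3-/- mice by 0.75 ± 0.17 (SE; 95% CI 0.40 to 1.11; edgeR, adjusted p = 0.0399). Des was the only member with a negative difference, −0.50 ± 0.15 (95% CI −0.80 to −0.19; edgeR, adjusted p = 0.197). For the other 8 the difference was between 0.22 for Smtn and 0.54 for Cnn1, with adjusted p of 0.256 or more. The median difference of the 10 was 0.42, beside 0.0006 over all genes. The call for Myh11 was lost when any 1 of 20 of the 32 libraries was left out, from each of the 4 groups, with differences of 0.66 to 0.81 over all 32 such fits. It was also lost without the choroid-rich libraries (0.72, adjusted p = 0.143). The mutants differ in age and line as well as in genotype, and these cannot be told apart.

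Between the control groups, all 10 contractile genes were lower in WT mice at 12 months than in Notch3+/+ mice at 3 months (edgeR, 17643 genes), and 4.05% of all genes were called lower. The median log2 fold change was −0.77, beside 0.0026 over all genes tested. Age and mouse line differ together between these groups and cannot be told apart. Cnn1 fell most, to 47.2% of the level at 3 months (log2 fold change −1.08 ± 0.15; edgeR, adjusted p = 0.000552), followed by Myh11 and Acta2, which fell to 52.5% and 52.6%. Smtn and Des fell least, to 75.5% (−0.41 ± 0.08; edgeR, adjusted p = 0.00854) and 74.2% (−0.43 ± 0.10; edgeR, adjusted p = 0.0172). The CPM ranges did not overlap for 8 of the 10, as for 0.845% of all genes, and they overlapped for Smtn and Des. The log2 ratio of Myh11 to Acta2 was −0.36 ± 0.10 in WT and −0.37 ± 0.14 in Notch3+/+ mice, while 6 of the 9 ratios to Acta2 were higher in WT mice, by 0.14 for Myl9 to 0.52 for Smtn (exact permutation, adjusted p of 0.0186 or less). Acta2, the denominator they share, itself fell (log2 fold change −0.93), and more than the genes of these 6 ratios. Of these 6, the ratio of Lmod1 missed the threshold without the choroid-rich libraries (0.15, exact permutation, adjusted p = 0.318).

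Genes of other tissues moved with this comparison. The 8 choroid plexus genes had a median log2 fold change of 3.39, with 6 called higher, beside 3.87% of all genes, and summed to 286 to 25412 CPM in WT and to 306 to 652 CPM in Notch3+/+ libraries. All 8 oligodendrocyte genes were higher, 3 of them called (median 0.64), and all 10 endothelial genes had a lower mean, 1 of them called (median −0.17). Of the 8 astrocyte genes 2 were called higher and 1 lower, beside 3.87% and 4.05% of all genes. The part of these cells in the changes of the members was not tested. Without the choroid-rich libraries, 8 of the 10 members passed the threshold, and Smtn (−0.32, edgeR, adjusted p = 0.0998) and Des (−0.39, adjusted p = 0.0807) did not. With the mean of the endothelial list as a covariate 6 of the 10 were called. With the choroid plexus list or the mural list as the covariate 8 were, all but Smtn and Des.

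No relative of the members passed the test in Notch3-/- mice. The 31 listed relatives included other actins, myosins, tropomyosins, light chains and intermediate filaments, and proteins such as caldesmon and tropomodulin. Of these, 26 were tested and 0 were called by edgeR, with a median log2 fold change of −0.08. At an unadjusted p below 0.05 there were 7, all lower, beside 3.96% of all genes. By limma voom 0 were called, and by DESeq2 1, Tpm1, lower, beside 0.75% of all genes. Actb, the actin of all cells, was at −0.11 ± 0.09 and Vim, vimentin, at 0.01 ± 0.08 (SE; edgeR, adjusted p = 0.870 and 0.997). In TgNotch3R169C mice 0 of 25 were called by edgeR and by limma voom (median 0.0046), with 1 at an unadjusted p below 0.05, beside 7.27% of all genes in either direction, and DESeq2 called 1, Actg2 (named after its values were seen), beside 0.33% of all genes. Between the controls 5 of 26 were called lower and 1 higher (median −0.17), beside 4.05% and 3.87% of all genes. These 6 are named after their values were seen: Actg2, the enteric smooth muscle actin (−1.21), Tpm1 (−0.55), Cald1, caldesmon (−0.36), Myl6, the essential light chain (−0.33), Tmod3, a tropomodulin (−0.25), and Myh14, a non-muscle myosin heavy chain (1.19).

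Among 16 genes that set the phosphorylation of the light chain, 15 had a lower mean in Notch3-/- mice, beside 50.5% of all genes, and 1 was called, Ppp1cb, the catalytic subunit of myosin phosphatase (−0.26 ± 0.06, SE; edgeR, adjusted p = 0.0352). Their median was −0.11, and edgeR called 0.452% of all genes lower. DESeq2 called 4 of the 16, all lower, where it called 0.75% of all genes lower. In TgNotch3R169C mice 0 of the 16 were called by edgeR, DESeq2 or limma voom, and 0 had an unadjusted p below 0.05. Between the controls 7 of the 16 were called lower, beside 4.05% of all genes.

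Of 12 genes for serum response factor and its cofactors, 1 was called in Notch3-/- mice, Csrp1, an actin-bundling LIM protein (−0.41 ± 0.08, SE; edgeR, adjusted p = 0.0240). Their median was −0.03, and edgeR called 0.452% of all genes lower. Srf was at −0.11 ± 0.07 and Myocd, myocardin, at −0.48 ± 0.24 with 9.24 CPM in the controls, neither past the test, and both are named after their values were seen. In TgNotch3R169C mice 0 of the 12 were called by edgeR, DESeq2 or limma voom. At an unadjusted p below 0.05 there were 3, of which 2 were lower, beside 7.27% of all genes in either direction. Between the controls 4 were called lower, beside 4.05% of all genes, among them Myocd (−1.04 ± 0.17; edgeR, adjusted p = 0.0018).

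Of the 11 mural genes that encode no contractile protein, 1 was called lower and 1 higher by edgeR in Notch3-/- mice (Cspg4 and Kcnj8, above), with a median of −0.11. Of all genes, 0.452% were called lower and 0.198% higher. DESeq2 called 1 lower and 2 higher, Abcc9 (named after its values were seen) being added, and called 0.531% of all genes higher. In TgNotch3R169C mice 0 were called by edgeR, DESeq2 or limma voom (median 0.02). At an unadjusted p below 0.05 there was 1, beside 7.27% of all genes in either direction. Between the controls 4 were called lower and 2 higher, beside 4.05% and 3.87% of all genes. The 10 endothelial genes had a median of 0.07 in Notch3-/- mice, with 0 called and 0 at an unadjusted p below 0.05 by edgeR. All 8 choroid plexus genes were higher in these mice (median 2.33), 6 of them at that limit. All 8 oligodendrocyte genes were higher (median 0.33), 1 at that limit, and all 4 pituitary genes tested were lower (median −5.34), 3 at that limit. None of these was called, and 1363 of all 17714 genes passed that limit in either direction. The part of these tissues in the changes of the members was not tested.

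Within a group, the members moved together from mouse to mouse. After each group's mean was subtracted, the Pearson correlations of the 45 pairs of members over 32 libraries ran from 0.49 (Lmod1 and Des) to 0.96 (Tagln and Myl9), with a median of 0.785. These are descriptive, since the libraries share scaling and tissue content. The correlation of each gene with the mean of the other 9 was highest for Myl9 (0.96), Acta2 (0.94) and Tagln (0.94) and lowest for Lmod1 (0.73), Des (0.77) and Smtn (0.78). Notch3+/+ replicate 4 had the highest mean of the members within its group, at 0.49 above the group mean on the log2 scale, followed by Notch3-/- replicate 1 at 0.34, and TgNotch3R169C replicate 5 was lowest at −0.37, followed by WT replicate 4 at −0.33. Both of the last are choroid-rich libraries, as is WT replicate 5, which was at 0.28. The mean of the members went with that of the mural list with no contractile gene (r = 0.77, Spearman's rho 0.73, and r = 0.74 without the 2 libraries farthest from the median) and less with the endothelial list (0.65, 0.67 and 0.54). With the neuron list r was −0.39, and with the choroid plexus list −0.42, which became −0.36 and −0.26 without the 2 libraries farthest from the median.

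**Figure D5:**
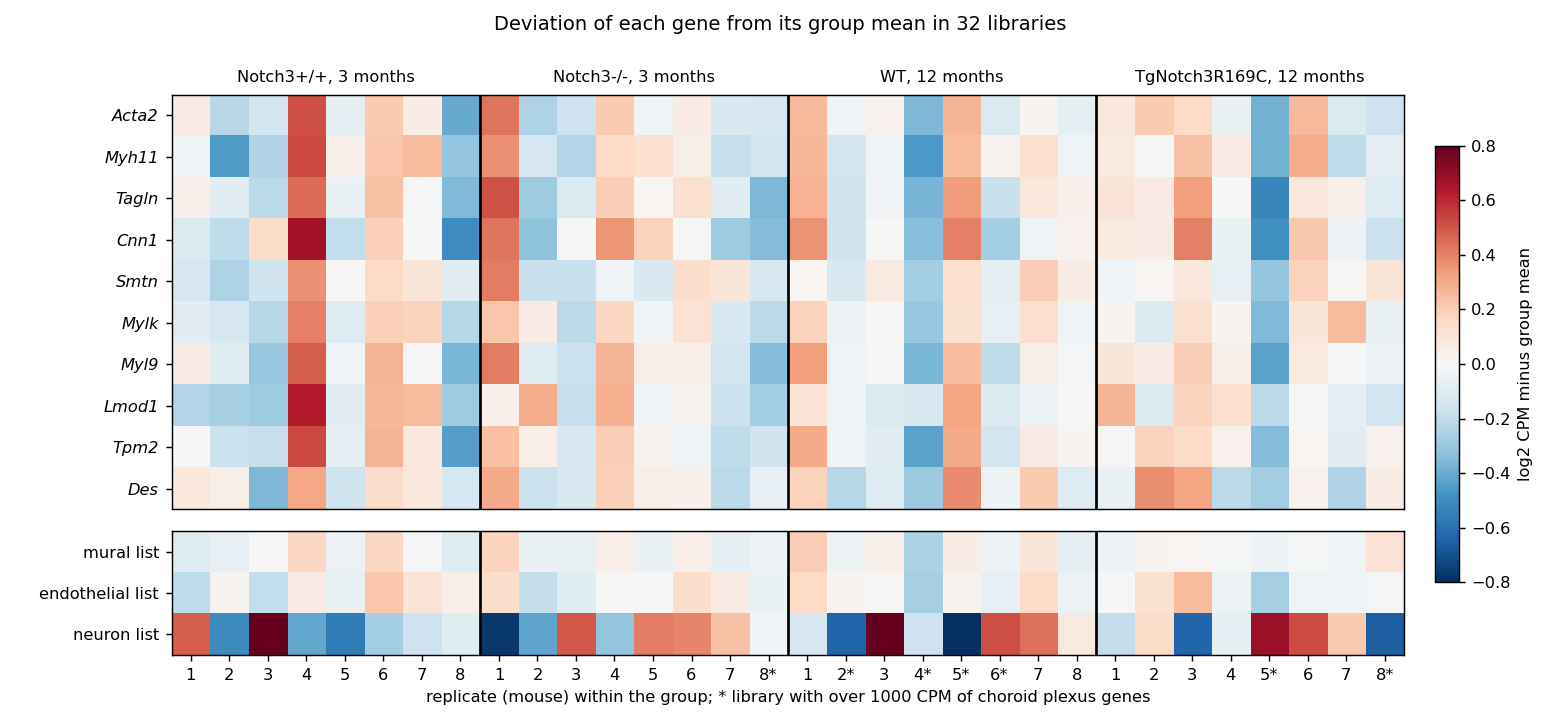
Deviation of each gene (upper block) and of the mean of 3 marker lists (lower block) from the group mean on the log2 CPM scale, 1 column per library, with colors saturated beyond 0.8. Columns tend to have 1 color over the 10 genes, such as Notch3+/+ replicate 4 (high) and TgNotch3R169C replicate 5 (low).

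The 5 genes outside the list whose deviations were most like the mean of the members over the 32 libraries were Mcam (r = 0.90), the adhesion molecule CD146; Csrp1 (0.90); Pln (0.89), phospholamban, which restrains the calcium pump of the sarcoplasmic reticulum; Flna (0.88), the actin cross-linker filamin A; and Tpm1 (0.88), another tropomyosin. In Notch3-/- mice Pln fell by 1.31 on the log2 scale (edgeR, adjusted p = 0.000344) and Csrp1 by 0.41, and Tpm1, Flna and Mcam were at −0.34, −0.32 and −0.39 without passing the test. None of the 5 passed it in TgNotch3R169C mice (edgeR, adjusted p of 0.637 or more). All 5 were lower in the 12-month than in the 3-month controls, by −0.44 for Flna to −0.92 for Pln.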

How the data were processed

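Brain arteries of 32 mice were profiled by RNA-seq (stranded mRNA preparation, polyA selection). The authors deposited 1 table of raw read counts per gene, without normalization. The submitters' processing notes name bcl2fastq 2.20.0.422, cutadapt 1.10, Bowtie2 2.2.8, STAR 2.5.3a, HTSeq 0.6.1p1 and the build mm39, and the annotation release is not given in the sources used here. Groups and ages were taken from the labels. The 10 genes and the gene lists were chosen with earlier results of these data known.

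Counts were tested with edgeR 4.0.16 in R 4.3.3 (filterByExpr, TMM, quasi-likelihood test, Benjamini-Hochberg adjustment over all genes tested, threshold 0.05) in fits of the 2 groups compared, and as an interaction in a fit of all 4 groups. DESeq2 1.42.0, limma voom (limma 3.58.1), other normalizations and filters, marker lists or Xist as covariates, and leaving out single libraries were the alternatives, and leaving out choroid-rich libraries was added after the data were seen, as were the ratios to Acta2 and the counts within lists by other tools. Log2 CPM used a prior count of 2. The scripts were tested on simulated data. Named genes were the 10 members, Notch3, called genes of the lists, the relatives of highest level and the 5 genes most like the members' mean, and genes outside this rule, such as Srf and Myocd, are said to be named after their values were seen.

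The lowest library held 20289487 counts, so that counting error is small beside the spread between mice. No 2 libraries agreed within sampling noise (lowest chi-square per gene 10.1). Same-numbered mice of 2 groups correlated above 0.1 in 4, 4 and 3 of 8 pairs in the 3 comparisons. Whether the numbers pair the mice cannot be told from these correlations, and the main fits used no pairing. Near copies were sought with blastn 2.17.0. The annotation at hand (GRCm38) is of another build than the counts, so the only coordinates given are those of the RefSeq start regions, on GRCm38.p6.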

Additional observations from a re-analysis of the deposited data

Results flagged for a closer look

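Myl9 in TgNotch3R169C replicate 5 stood below the other mice of its group, at 183 CPM beside 239 CPM in the next lowest. Its gap took 0.559 of the range of the group, above the 95% critical value of Dixon's test for 8 samples. Of 40 combinations of gene and group examined, about 2 would be flagged by chance. This library was also choroid-rich.

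The change in TgNotch3R169C mice differed from that in Notch3-/- mice by the interaction test for Notch3, by 3.68 on the log2 scale, and for Myh11, by 0.75. For Notch3 this difference was set by how the 2 lines were made. The call for Myh11 was lost when any 1 of 20 of the 32 libraries was left out.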

How the results depend on the processing

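No member's log2 fold change changed sign under any alternative run. In Notch3-/- mice the number of members called was 8, 3 to 8 when 1 library was left out, 9 with the endothelial covariate and with all 4 groups in 1 fit (Smtn added), 8 with the mural covariate (Lmod1 lost, Des added as higher) and 6 without the choroid-rich library. All genes called numbered 115 (78 to 141 without 1 library), 280 with DESeq2 and 174 with all 4 groups in 1 fit. In TgNotch3R169C mice the members called were 0 (0 to 0 without 1 library) and 1 with the endothelial list as a covariate (Tpm2, −0.36, edgeR, adjusted p = 0.0341), and all genes called were 20 (11 to 26), 74 with DESeq2, 6 with the replicate block, 7 with the neuron covariate and 2 without the choroid-rich libraries. Between the controls the members called were 10 (10 to 10), 9 with the replicate block and 6 with the endothelial covariate. They were 8 with the choroid plexus covariate, with the mural covariate and without the choroid-rich libraries, each time without Smtn and Des. With the mural covariate the members' median log2 fold change was −0.53, beside −0.77 in the main fit. All genes called were 1398 (895 to 1621), 2365 with DESeq2, 715 with the replicate block, 323, 183 and 543 with the choroid plexus, endothelial and mural covariates, and 402 without the choroid-rich libraries. For the difference between the mutants the members called were 1 (0 to 1), 0 with upper-quartile normalization (Myh11, edgeR, adjusted p = 0.0527), with no filter (0.0623), with the replicate block (0.0520), with the choroid plexus covariate (0.0693) and without the choroid-rich libraries, and 2 with the endothelial and with the mural covariate, where Des passed. All genes called were 65 (53 to 94), 153 with DESeq2 and 39 without the choroid-rich libraries. The causes were not tested. With the level of Xist as a covariate the members called were as in the main fits. They were 8 in Notch3-/- mice, 0 in TgNotch3R169C mice, 10 between the controls and 1 for the difference between the mutants. With the replicate block, whose numbers the mice share without a known pairing, Des between the controls also missed the threshold (−0.43, edgeR, adjusted p = 0.0515), and of same-numbered mice 3, 1 and 2 of 8 correlated best with their own number in the 3 comparisons.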
